A study of Mus musculus with 27 samples.

Results

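Embryoid bodies of the 19BL induced pluripotent stem cell line were compared with embryoid bodies of the R1 embryonic stem cell line at day 11 of differentiation. Both are mouse lines. 19BL was reprogrammed with 4 transcription factors and is called 4F here; R1 comes from embryos and carries no reprogramming factors. The comparison rested on 6 of the 27 arrays of the series: 3 biological replicates of 4F and 3 of R1, chosen by their titles. The remaining arrays covered both lines before differentiation (day 0) and at day 5, and a line reprogrammed with 3 factors (H9, called 3F) at all of these times. All lines had been grown on inactivated feeder cells with the cytokine LIF, and embryoid bodies were then formed in serum medium with no LIF. Each line is a single line, so a difference between 4F and R1 may belong to these particular lines and not to the way they were made. The series title concerns the potential of induced lines to form heart muscle, which is the question this comparison bears on.

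Embryoid bodies are aggregates in which pluripotent cells lose their undifferentiated state and give rise, side by side, to derivatives of the germ layers. The mesoderm among them yields beating heart muscle, smooth muscle, endothelium, blood cells with macrophages, and a connective tissue that deposits collagen, while the endoderm makes a yolk sac-like layer that secretes plasma proteins. Pluripotency is kept by a network of transcription factors around Oct4 (gene Pou5f1), Nanog and Sox2, which is normally shut down as these lineages appear. A bulk RNA sample mixes all of these cells, so fewer cells of a type and less RNA of that type per cell cannot be told apart.

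Values are log2 signals of Affymetrix probe sets, and a difference of 1 is a 2-fold difference. Each gene was represented by its brightest probe set over all arrays, which gave 18193 genes. A gene is called, and said to be higher or lower, with an adjusted p under 0.05 (limma fit with Benjamini-Hochberg adjustment over all genes) and a difference of at least 2-fold; errors after ± are standard errors of that fit unless SD is written. The labels call the replicates biological, and 3 arrays a group limit the precision. The fit shares an estimate of each gene's spread among the 9 groups of all 27 arrays. Where day 11 arrays of a line vary more than arrays of other groups, the standard errors can be too small for day 11. The adjusted p-values can then be too low as well. Array medians ran from 5.91 to 6.10. Ttn, Ryr2, Myh11, Msln, Pecam1, Pax6, Sox1, Fgf5 and Serpinb2 lay below these medians in both lines at day 11. For such dim genes the lack of a call says little.

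Arrays within a group were not all alike. Control probe sets at the 3' and 5' ends of Actb and Gapdh gave a 3' minus 5' index, which grows as RNA is broken or copied incompletely, since labelling starts at the 3' end. Its mean was 2.69 ± 0.23 (SD, n = 3) in 4F at day 11, with a range of 2.44 to 2.89. The mean was 1.94 ± 0.20 (SD, n = 3) in R1 at day 11, with a range of 1.75 to 2.16, so the groups did not overlap. Among the 9 groups of the series, the index was highest in 4F at day 11. On the first principal component of all 27 arrays, 4F at day 11 lay at 39.8, 31.3 and 48.9 and R1 at 67, 67.8 and 82.8. In many of the genes below the third 4F array lay nearest to R1, and the third R1 array was low in macrophage, heart muscle and globin genes.

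At day 11, 1511 of the 18193 genes were called (8.31%), of which 434 were higher in 4F (2.39%) and 1077 lower (5.92%). These shares are the background against which the counts of list members below are to be read. The median difference over all genes was -0.10, and 63.4% of genes had a difference below 0. Differences of at least 8-fold were found for 10 of the higher and 43 of the lower genes. In 1435 of the called genes the 3 values of one line lay wholly above the 3 of the other, and in 76 the groups overlapped. A call already favours separate groups, and the share of separate groups over all genes was not computed. The count of 1435 is therefore no further support for the calls. The split between directions depended on scaling: lower genes made up 71.3% of the calls in the deposited values, and 50.7% after median centring, 55.8% after cyclic loess and 51.6% after quantile normalization, which moved the median of all genes by 0.19, 0.14 and 0.15. Without the first 4F array 1084 genes were called, and without the third 2199.

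**Figure D1:**
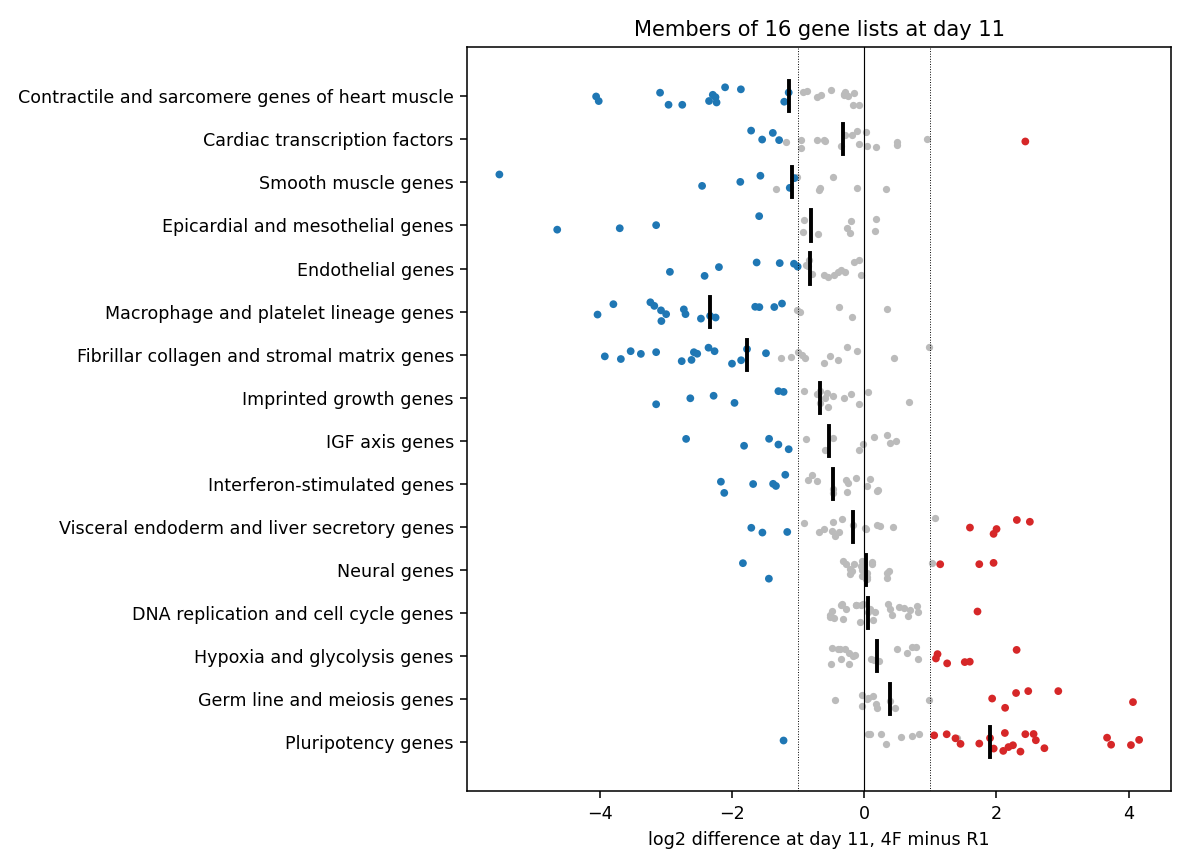
Each point is a gene, placed by its log2 difference at day 11 (4F minus R1), in 16 gene lists; blue points were called lower, red points called higher, grey points were not called, the black bar is the list median and dotted lines mark a 2-fold difference. Heart muscle, macrophage and stromal matrix genes lie to the left, with medians of -1.14, -2.33 and -1.77, and pluripotency genes to the right, with a median of 1.90.

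Many genes of the contractile apparatus of heart muscle were lower in 4F. Of 25 measured genes of the sarcomere, the repeating unit of actin and myosin filaments, 13 were called lower and 0 higher, with a median difference of -1.14 beside -0.10 over all genes. The count ran from 9 to 14 with each of the 6 arrays left out, 11 under each of the 3 scalings and 8 in a fit of only the 6 compared arrays. The mean level of the list ranged from 6.12 to 6.39 over the 4F arrays and from 6.84 to 8.29 over the R1 arrays.

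Tnnt2, the cardiac troponin T that ties troponin to the thin filament, had log2 values of 10.27, 10.72 and 10.62 in R1 and 5.4, 5.81 and 8.25 in 4F. All R1 arrays were alike, while the third 4F array lay well above the other 4F arrays and still below R1. The difference was -4.05 ± 0.65 (adjusted p = 0.000121), a 16.6-fold lower signal. Tnni1, the slow troponin I of embryonic muscle, had log2 values of 11.43, 11.98 and 10.8 in R1 and 8.28, 7.95 and 9.73 in 4F, a difference of -2.75 ± 0.45 (adjusted p = 0.000139). The calcium-binding troponin C gene Tnnc1 had values of 10.55, 11.1 and 9.27 in R1 and 7.43, 6.94 and 7.67 in 4F, a difference of -2.96 ± 0.52 (adjusted p = 0.00025). These 3 troponin genes were lower in every 4F array than in any R1 array.

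Myosin and actin genes showed a further pattern, with R1 arrays that differed among themselves. Myh6, the alpha myosin heavy chain, had log2 values of 8.4, 9.11 and 4.68 in R1 and 4.02, 4.57 and 4.35 in 4F. The third R1 array was close to the 4F arrays, and the difference was -3.09 ± 0.72 (adjusted p = 0.00319). Myh7, the beta heavy chain, had values of 8.09, 8.23 and 5.9 in R1 and 5.02, 5.14 and 5.2 in 4F and a difference of -2.29 ± 0.40 (adjusted p = 0.00023). Actc1, the cardiac alpha actin, had values of 12.42, 12.68 and 8.68 in R1 and 6.42, 6.56 and 8.76 in 4F. Its groups overlapped, since the third array of each line lay near the same level, and the difference was -4.01 ± 0.76 (adjusted p = 0.000496). The atrial light chain gene Myl7 (10.55, 10.9 and 6.64 in R1 and 7.3, 7.24 and 7.23 in 4F) and the ventricular Myl2 (8.21, 8.21 and 4.52 in R1 and 4.72, 4.67 and 4.86 in 4F) had groups that overlapped. The call of Myl2 was lost without the first or second array of either line, and that of Myl7 without any of the 3 4F arrays or without the first or second R1 array, with adjusted p of at most 0.125 for Myl2 and 0.228 for Myl7. The embryonic light chain gene Myl4 had a difference of -2.25 ± 0.48 (adjusted p = 0.00154), but the second brightest probe sets of Myl4 and Myh6 were not called (0.12, adjusted p = 0.671; -0.08, adjusted p = 0.708). Tnni3, the adult cardiac troponin I, was not called, with values of 6.03, 6.81 and 4.79 in R1 and 5.52, 5.52 and 5.1 in 4F, nor was the giant spring protein gene Ttn, with values of 5.21, 5.1 and 4.84 in R1 and 4.74, 5.2 and 4.77 in 4F.

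**Figure D2:**
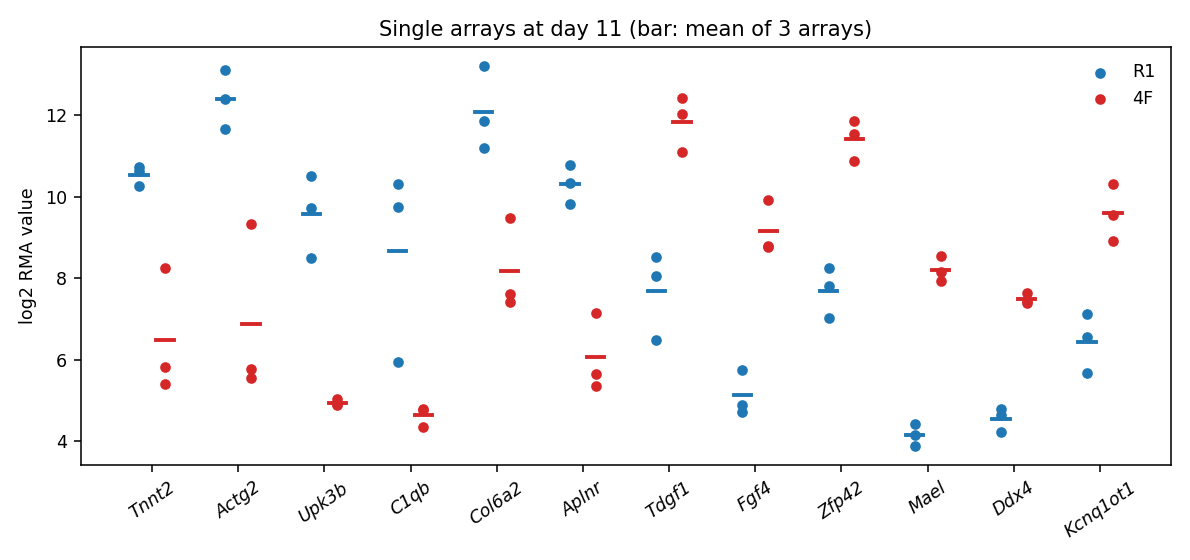
Log2 values of 12 genes on the single arrays of R1 (blue) and 4F (red) at day 11, with a bar at the mean of 3 arrays. The 3 red points lie below the 3 blue points for Tnnt2, Actg2, Upk3b, C1qb, Col6a2 and Aplnr, and above them for Tdgf1, Fgf4, Zfp42, Mael, Ddx4 and Kcnq1ot1.

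Serum response factor drives many muscle genes through the CArG box, and the promoters of 3 muscle genes named here are shown because each holds that motif close to its start. Acta1, the skeletal alpha actin that embryonic heart muscle also expresses, had log2 values of 8.18, 8.38 and 7.72 in R1 and 5.88, 6.59 and 5.98 in 4F, a difference of -1.94 ± 0.28 (adjusted p = 4.25e-05). The sequences are the 100 bases before the annotated start on the strand of the gene, from RefSeq on build GRCm38.p6, with the CArG box in capitals. They lie at chr8:123894776-123894875, chr2:114052876-114052975 and chr11:5898783-5898882, all on the minus strand.
Acta1: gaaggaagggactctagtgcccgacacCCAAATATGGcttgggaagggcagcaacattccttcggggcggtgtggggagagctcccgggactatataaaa
Actc1: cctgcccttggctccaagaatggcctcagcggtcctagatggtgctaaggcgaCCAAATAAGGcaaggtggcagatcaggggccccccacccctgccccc
Myl7: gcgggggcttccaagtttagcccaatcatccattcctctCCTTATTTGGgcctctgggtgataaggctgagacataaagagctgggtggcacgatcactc
The box begins 73 bases before the start of Acta1, 47 before that of Actc1 and 61 before that of Myl7. In windows of 250 bases upstream of a start, searched on both strands, 1.47% of 32851 promoters held a CArG box. Of the 25 contractile genes, 22 had such a window, and 6 held the box: Actc1, Ldb3, Myl3, Myl7, Myom1 and Nebl. Of these 6, 3 were called lower (Actc1, Myl7 and Myom1) and 3 were not, so the motif was found in genes of both kinds. Of all 22 with a window 13 were called lower. Of the 14 smooth muscle genes measured, 10 had a window, 4 of them called, and 0 held the box. A match describes letters only.

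Few transcription factors of the heart were called. Of 22 measured, 4 were called lower and 1 higher, with a median difference of -0.32; without the first 4F or the third R1 array 2 were called lower. Mef2c, which switches on muscle genes, had log2 values of 9.06, 9.32 and 8.43 in R1 and 6.83, 7.19 and 7.66 in 4F, a difference of -1.71 ± 0.32 (adjusted p = 0.000506). Gata6, a regulator of heart and endoderm, had values of 10.9, 10.96 and 11.18 in R1 and 9.34, 9.55 and 10.01 in 4F and a difference of -1.38 ± 0.37 (adjusted p = 0.00784). Gata4, whose groups overlapped, and its partner Zfpm2 were also called lower, at -1.29 and -1.54, but each call was lost without the first 4F, the second 4F or the third R1 array. With the second brightest probe set of each gene, or its only one, 0 members of the list were called lower, and with the 3' minus 5' index as covariate again 0. Nkx2-5, an early heart regulator, had values of 7.21, 7.33 and 6.96 in R1 and 7.13, 6.94 and 7.18 in 4F, groups that overlapped and a difference of -0.08 ± 0.25, adjusted p = 0.855. Tbx5 had values of 6.84, 6.58 and 6.9 in R1 and 6.48, 7.04 and 6.88 in 4F, also with overlap, and a difference of 0.02 ± 0.15, adjusted p = 0.943.

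The member called higher was Tbx3, a repressor of the working heart muscle programme that is also part of the naive pluripotency network. Its log2 values were 6.9, 6.29 and 6.46 in R1 and 9.03, 9.43 and 8.5 in 4F, higher in every 4F array, with a difference of 2.44 ± 0.48 (adjusted p = 0.000673). Hand2, a factor of the right ventricle, was not called (-0.95 ± 0.45, adjusted p = 0.13), nor was Isl1, a marker of the second heart field (0.95 ± 0.37, adjusted p = 0.0669). Of 20 genes of calcium handling, ion channels and natriuretic peptides, 3 were called lower and 0 higher, with a median of -0.22. They were Corin, the protease that activates the atrial peptide (-2.41), the stress-responsive muscle gene Ankrd1 (-1.86) and the potassium channel gene Kcnh2 (-1.21). With the index as covariate none of these 3 was called. The calcium release channel gene Ryr2 was not called, with values of 5.74, 5.34 and 5.28 in R1 and 5.48, 5.2 and 5.35 in 4F, nor was the pump regulator gene Pln, with values of 7.43, 7.45 and 7.09 in R1 and 7.14, 7.18 and 7.13 in 4F.

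Some smooth muscle genes were lower. Of 14 measured, 6 were called lower and 0 higher, with a median of -1.09 and 4 to 7 calls when single arrays were left out. Actg2, the enteric gamma actin, had log2 values of 11.65, 12.4 and 13.12 in R1 and 5.55, 5.76 and 9.33 in 4F. It was the most reduced of all genes with separate groups, by -5.52 ± 0.64 (adjusted p = 3.29e-06), or 45.7-fold. Cnn1, calponin, had values of 8.47, 8.81 and 8.24 in R1 and 5.27, 5.83 and 7.07 in 4F and a difference of -2.45 ± 0.31 (adjusted p = 1e-05). Tagln, transgelin, had a difference of -1.57 ± 0.38 (adjusted p = 0.00385). The arterial actin gene Acta2 had values of 14.64, 14.87 and 14.82 in R1 and 13.09, 13.5 and 14.36 in 4F and missed the threshold (-1.13 ± 0.60, adjusted p = 0.188), and the smooth muscle myosin gene Myh11 had values of 5.32, 5.0 and 5.09 in R1 and 4.96, 5.03 and 5.1 in 4F, with overlap. With the index as covariate Actg2 and Cnn1 were still called and Tagln was not (-0.91, adjusted p = 0.317).

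Genes of the epicardium and mesothelium, the layers that cover the heart and body cavities, included the gene Upk3b, which separated the lines widely. Of 12 measured, 4 were called lower and 0 higher, with a median of -0.80, and 7 were called lower without the third R1 array. Upk3b, a mesothelial uroplakin, had log2 values of 9.73, 10.51 and 8.49 in R1 and 4.89, 4.91 and 5.02 in 4F. The 4F arrays lay close together and far below every R1 array, and the difference was -4.64 ± 0.36 (adjusted p = 4.26e-08). Tcf21, a factor of epicardial fibroblast precursors, had values of 10.21, 10.84 and 8.08 in R1 and 5.49, 6.22 and 6.33 in 4F and a difference of -3.69 ± 0.52 (adjusted p = 2.95e-05), though its second probe set was not called (-0, adjusted p = 0.99). Wt1, which marks the epicardium, had values of 8.23, 8.36 and 8.95 in R1 and 7.09, 6.59 and 7.1 in 4F and a difference of -1.59 ± 0.24 (adjusted p = 5.61e-05); with the index as covariate it fell just short of 2-fold (-0.99, adjusted p = 0.0458). Msln, mesothelin, was not called, with values of 5.13, 5.33 and 5.17 in R1 and 4.99, 5.13 and 4.93 in 4F.

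Some endothelial genes were lower as well. Of 20 measured, 7 were called lower and 0 higher, with a median of -0.81. The count was 5 to 9 with single arrays left out and 4 in a fit of only the compared arrays. Tek, the angiopoietin receptor Tie2, had log2 values of 8.37, 8.08 and 7.49 in R1 and 4.7, 4.9 and 5.53 in 4F and a difference of -2.94 ± 0.58 (adjusted p = 0.000745). Kdr, the VEGF receptor of endothelium and its mesodermal precursors, had values of 10.3, 10.29 and 10.37 in R1 and 7.97, 7.69 and 8.71 in 4F and a difference of -2.20 ± 0.47 (adjusted p = 0.00163). Cd34, a surface protein of vessels and blood precursors, was lower by a difference of -2.41 ± 0.41 (adjusted p = 0.000187). In all of these the groups were apart, yet with the index as covariate neither Tek (-0.80, adjusted p = 0.452) nor Kdr (-1.90, adjusted p = 0.0913) nor Cd34 (-1.58, adjusted p = 0.0792) was called, and 1 of the 20 genes was. The junction genes Pecam1 and Cdh5 were not called, with values of 5.56, 5.57 and 5.48 in R1 and 5.24, 5.1 and 5.23 in 4F for the former and of 7.05, 6.23 and 6.54 in R1 and 5.66, 5.19 and 6.46 in 4F for the latter. Aplnr, the apelin receptor of early heart and vessel precursors, had values of 10.78, 10.34 and 9.82 in R1 and 5.65, 5.36 and 7.15 in 4F and a difference of -4.26 ± 1.0 (adjusted p = 0.00314). It was the 1 called gene among 16 measured genes of the primitive streak and early mesoderm, and it too was not called with the index as covariate (-3.66, adjusted p = 0.126).

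Most macrophage and platelet genes were lower in 4F. Of 21 measured, 16 were called lower and 0 higher, with a median difference of -2.33. The count was 15 to 18 with single arrays left out, 16 under each scaling and 13 in a fit of only the compared arrays. With the index as covariate it was 15, and 14 genes were called both without and with the covariate. C1qb, a chain of complement C1q that tissue macrophages secrete, had log2 values of 9.75, 10.32 and 5.93 in R1 and 4.35, 4.79 and 4.77 in 4F. The R1 arrays were spread widely, with the third near the 4F level, and the difference was -4.03 ± 0.65 (adjusted p = 0.000111). Ctss, the lysosomal protease cathepsin S, had values of 10.11, 10.42 and 6.81 in R1 and 5.25, 4.81 and 5.9 in 4F and a difference of -3.79 ± 0.73 (adjusted p = 0.000616). Csf1r, the receptor for the macrophage growth factor CSF1, had values of 9.71, 10.41 and 8.32 in R1 and 7.75, 7.67 and 8.28 in 4F and a difference of -1.58 ± 0.31 (adjusted p = 0.000612). Cd14, the co-receptor for bacterial lipopolysaccharide, was less uneven, with values of 9.87, 10.06 and 8.76 in R1 and 6.1, 6.15 and 6.92 in 4F and a difference of -3.17 ± 0.37 (adjusted p = 3.38e-06).

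The platelet chemokine gene Pf4 had values of 11.36, 11.42 and 8.82 in R1 and 7.53, 6.52 and 8.35 in 4F and a difference of -3.07 ± 0.63 (adjusted p = 0.00106). Ptprc, the leukocyte antigen CD45, had values of 8.22, 8.79 and 5.94 in R1 and 4.18, 4.18 and 4.89 in 4F and a difference of -3.23 ± 0.45 (adjusted p = 2.76e-05), a call not made with its second probe set (-0.16, adjusted p = 0.632). Outside the list, Lyz1, a lysozyme of macrophages and gut (-4.48 ± 0.74, adjusted p = 0.000139), and Ms4a6b, a membrane protein of leukocytes (-3.89 ± 0.71, adjusted p = 0.000384), were among the 15 most reduced genes with separate groups. Lyz1 and Lyz2 are near-identical copies, and their probe sets may detect both. In 3F at day 11, given for its level with no test, Csf1r stood at 8.5 ± 0.24 (SD, n = 3), C1qb at 5.51 ± 0.9 and Ptprc at 4.43 ± 0.49, where 4F stood at 7.9 ± 0.33, 4.63 ± 0.25 and 4.42 ± 0.41. The mean level of the whole list at day 11 was 8.45 in R1, 6.85 in 3F and 6.36 in 4F, so 3F stood nearer to 4F than to R1.

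The embryonic globin genes varied more between arrays of a line than between lines. Hbb-bh1, an embryonic beta globin, had log2 values of 13.87, 13.19 and 8.37 in R1 and 12.52, 11.79 and 9.89 in 4F, with a standard error larger than the difference (-0.41 ± 1.22, adjusted p = 0.857). Hbb-y had values of 13.73, 12.97 and 9.44 in R1 and 12.09, 11.55 and 10.17 in 4F and likewise missed the threshold (-0.78 ± 0.89, adjusted p = 0.597). Of 10 erythroid genes measured, Hba-x alone was called (-2.47 ± 0.57, adjusted p = 0.00268), and its groups overlapped. The count was 3 without the third R1 array, the array low in globins, 2 without the second 4F array and 0 in a fit of only the compared arrays. The erythroid regulators Gata1 and Klf1 were not called, at -1.0 ± 0.29, adjusted p = 0.0135 and -0.67 ± 0.28, adjusted p = 0.0879.

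Connective tissue matrix was the other large block of lower genes. Of 27 fibrillar collagen and stromal matrix genes, 15 were called lower and 0 higher, with a median of -1.77 and 10 to 16 calls when single arrays were left out. Lum, the collagen-binding proteoglycan lumican, had log2 values of 13.83, 13.92 and 13.95 in R1 and 9.64, 9.57 and 11.46 in 4F. The R1 arrays were close together and every 4F array lay below them, giving a difference of -3.68 ± 0.49 (adjusted p = 1.84e-05), or 12.8-fold. Col6a2, a chain of the microfibril collagen VI, had values of 11.2, 11.86 and 13.2 in R1 and 7.42, 7.6 and 9.48 in 4F and a difference of -3.92 ± 0.55 (adjusted p = 2.74e-05). Its partner chain gene Col6a1 had values of 11.19, 11.83 and 13.11 in R1 and 7.95, 8.12 and 9.95 in 4F and a difference of -3.38 ± 0.58 (adjusted p = 0.000207). Loxl1, an enzyme that crosslinks elastin, had values of 10.19, 10.5 and 11.11 in R1 and 6.18, 6.55 and 8.49 in 4F and a difference of -3.53 ± 0.59 (adjusted p = 0.00017).

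Most of these calls were not made once the 3' minus 5' index was in the fit. With the index as covariate 3 of the 27 were called lower and 1 higher. The 3 lower genes had been called without it: Col6a2 (-2.06, adjusted p = 0.0343), Lum (-2.07, adjusted p = 0.0248) and Dcn, the proteoglycan decorin (-2.12, adjusted p = 0.0165). In the fit without the covariate, the second probe set of Dcn was not called (-0.25, adjusted p = 0.194). Col6a1 (-1.02, adjusted p = 0.23) and Loxl1 (-1.10, adjusted p = 0.196) were not called with the index as covariate. The list median was -0.19 in that fit. The chief fibrillar collagen genes were not called even without the covariate: Col1a1 had values of 11.99, 11.9 and 13.15 in R1 and 10.52, 10.82 and 11.9 in 4F (-1.26 ± 0.63, adjusted p = 0.158) and Col3a1 values of 14.16, 14.38 and 14.33 in R1 and 12.98, 13.14 and 13.74 in 4F (-1.0 ± 0.59, adjusted p = 0.239). Postn, periostin, was called at -2.57 ± 0.71, adjusted p = 0.0102, a call lost without the first or the second 4F array (-2.38, adjusted p = 0.0515; -2.31, adjusted p = 0.051) and with the covariate (-0.07, adjusted p = 0.972). Pdgfra, the receptor that marks stromal mesoderm, had values of 11.83, 11.74 and 12.08 in R1 and 10.67, 10.83 and 10.85 in 4F, and its difference missed the threshold (-1.10 ± 0.71, adjusted p = 0.299). The part of the index in the other differences was not tested beyond this covariate, whose slope comes from the variation within the 9 groups.

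**Figure D3:**
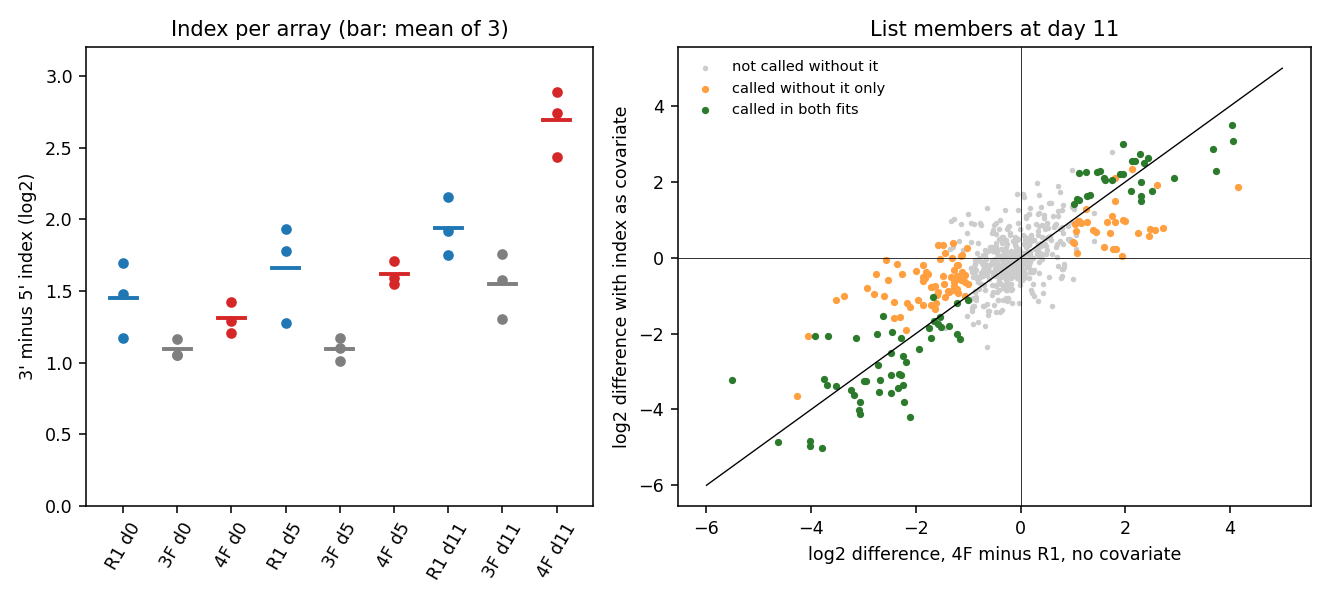
Left, the 3' minus 5' index of each array by line and day (log2 scale; blue R1, grey 3F, red 4F; bar, mean of 3 arrays); right, the log2 difference at day 11 of 665 list members without the covariate (horizontal) and with the index as covariate (vertical), with the line of equality. 4F at day 11 has the highest index, and 79 of the members were called in both fits (green) against 99 called only without the covariate (orange).

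Over all genes, the fit with the covariate called 482 genes higher (2.65%) and 547 lower (3.01%). Of the genes called without it, 170 of the higher (39.2%) and 358 of the lower (33.2%) were called again in the same direction. Because the index did not overlap between the lines at day 11, this covariate also lowers the precision of the contrast. A lost call can therefore come with a smaller difference, a larger standard error or both. The lists kept different shares of their calls: 14 of 16 for macrophage and platelet genes, 10 of 13 for contractile genes, 9 of 20 for the higher pluripotency genes and 3 of 15 for stromal matrix genes. Tnnt2 was among the contractile genes not called with it (-2.07, adjusted p = 0.0995).

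Basement membrane genes gave 3 lower and 0 higher of 17. The lower count was 1 without the first 4F array, 2 without the second 4F or the third R1 array, 6 without the third 4F array and 0 with the index as covariate. Sparc, a matrix glycoprotein of parietal endoderm and stroma, had the largest difference (-1.70 ± 0.33, adjusted p = 0.000616), which was not called with the covariate (-0.78, adjusted p = 0.255). Imprinted growth genes, expressed from 1 parental copy, were lower for 6 of 19 and higher for 0 with the brightest probe sets. With the second brightest, 2 were lower and 2 higher, and the median went from -0.66 to -0.25, and with the index as covariate 3 were lower. Grb10, an adaptor that dampens insulin receptor signalling, had log2 values of 13.81, 13.99 and 14.01 in R1 and 10.62, 11.15 and 12.16 in 4F and a difference of -2.63 ± 0.31 (adjusted p = 3.54e-06), a call not made with its second probe set (-0.05, adjusted p = 0.873). Nnat, neuronatin, had values of 9.62, 10.31 and 9.45 in R1 and 7.21, 7.24 and 8.11 in 4F and a difference of -2.28 ± 0.26 (adjusted p = 2.24e-06), which held with the covariate (-2.11, adjusted p = 0.0017). Cdkn1c, a cell cycle inhibitor, had values of 12.46, 12.84 and 12.32 in R1 and 9.87, 10.33 and 11.54 in 4F and a difference of -1.96 ± 0.38 (adjusted p = 0.000689), not called with the covariate (-1.10, adjusted p = 0.189). The growth factor gene Igf2 had values of 14.68, 14.91 and 14.74 in R1 and 14.1, 14.06 and 14.41 in 4F, with groups apart and a difference that missed the threshold (-0.59 ± 0.58, adjusted p = 0.523). Dlk1 had values of 11.39, 11.8 and 12.7 in R1 and 11.7, 11.65 and 12.71 in 4F and overlapping groups (0.06 ± 0.56, adjusted p = 0.958).

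A pair of long noncoding transcripts from imprinted clusters went the other way. Kcnq1ot1, which silences its neighbours on the paternal chromosome and lies beside Cdkn1c, had log2 values of 5.66, 6.55 and 7.11 in R1 and 10.3, 9.56 and 8.91 in 4F and a difference of 3.15 ± 0.34 (adjusted p = 1.59e-06). Airn, which runs across Igf2r in the opposite direction, had values of 6.83, 7.49 and 8.43 in R1 and 11.31, 10.23 and 9.82 in 4F and a difference of 2.87 ± 0.39 (adjusted p = 2.31e-05). In both the first 4F array was the highest, and both were called with the covariate (2.50, adjusted p = 0.00263; 3.15, adjusted p = 0.00218). The differences of their other probe sets ran from 0.11 to 3.10 for Kcnq1ot1 and from 0.42 to 2.01 for Airn. Igf2r itself was called lower (-1.30 ± 0.42, adjusted p = 0.0264) with overlapping groups, and had the opposite sign with the covariate (0.39, adjusted p = 0.588).

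Most pluripotency genes were higher in 4F at day 11. Of 29 measured, 20 were called higher and 1 lower, with a median difference of 1.90 beside -0.10 over all genes. The count of higher genes was 16 to 22 with single arrays left out, 21 under each scaling and 10 with the index as covariate. Per array, the mean level of the list was 9.07 to 9.81 in 4F and 7.10 to 7.97 in R1. It was 11.92 in R1 and 12.30 in 4F at day 0, so the level at day 11 was lower in both lines.

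Tdgf1, the Nodal co-receptor Cripto, led all higher genes with separate groups. Its log2 values were 8.52, 8.04 and 6.49 in R1 and 12.02, 12.42 and 11.09 in 4F, a difference of 4.16 ± 0.65 (adjusted p = 8.15e-05), or 17.9-fold. Fgf4, the growth factor that pluripotent cells secrete, had values of 5.75, 4.89 and 4.72 in R1 and 8.79, 9.92 and 8.76 in 4F and a difference of 4.04 ± 0.50 (adjusted p = 6.8e-06). Zfp42, also known as Rex1 and a classic marker of undifferentiated cells, had values of 8.24, 7.8 and 7.03 in R1 and 11.55, 11.85 and 10.88 in 4F and a difference of 3.74 ± 0.47 (adjusted p = 9.02e-06). Dppa2, a chromatin protein of early embryos and germ cells, had values of 8.23, 7.75 and 6.64 in R1 and 10.83, 11.52 and 11.29 in 4F and a difference of 3.67 ± 0.39 (adjusted p = 1.23e-06). In all 4 genes the third R1 array was the lowest, and no R1 array reached any 4F array.

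The core factors were higher too. Pou5f1 had log2 values of 8.09, 7.81 and 6.14 in R1 and 10.14, 10.5 and 9.08 in 4F and a difference of 2.56 ± 0.52 (adjusted p = 0.000923). Nanog had values of 6.67, 7.03 and 6.08 in R1 and 9.03, 9.54 and 9.0 in 4F and a difference of 2.60 ± 0.48 (adjusted p = 0.000409), and Sox2 values of 8.47, 8.57 and 6.33 in R1 and 9.25, 10.27 and 9.07 in 4F and a difference of 1.74 ± 0.44 (adjusted p = 0.00529). With the index as covariate Fgf4, Zfp42 and Dppa2 were still called, at 3.50, 2.29 and 2.86, while Tdgf1 (1.85, adjusted p = 0.0918), Pou5f1 (0.73, adjusted p = 0.465), Nanog (1.93, adjusted p = 0.0814) and Sox2 (1.10, adjusted p = 0.301) were not. Among the reprogramming factors Klf4 was not called (0.55 ± 0.31, adjusted p = 0.221), nor was Myc, with values of 8.41, 8.25 and 8.47 in R1 and 8.09, 8.34 and 8.38 in 4F. The RNA-binding protein gene Lin28a had values of 8.11, 7.2 and 6.07 in R1 and 6.52, 7.98 and 7.67 in 4F and overlapping groups. The member called lower was Dppa3, also known as Stella, with values of 8.44, 8.55 and 7.16 in R1 and 7.11, 6.97 and 6.43 in 4F (-1.22 ± 0.36, adjusted p = 0.015); it was lower at day 0 as well (-1.65 ± 0.36, adjusted p = 0.0123), and it is named here after its values were seen. Its day 11 call was lost without the third 4F, the first R1 or the second R1 array.

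**Figure D4:**
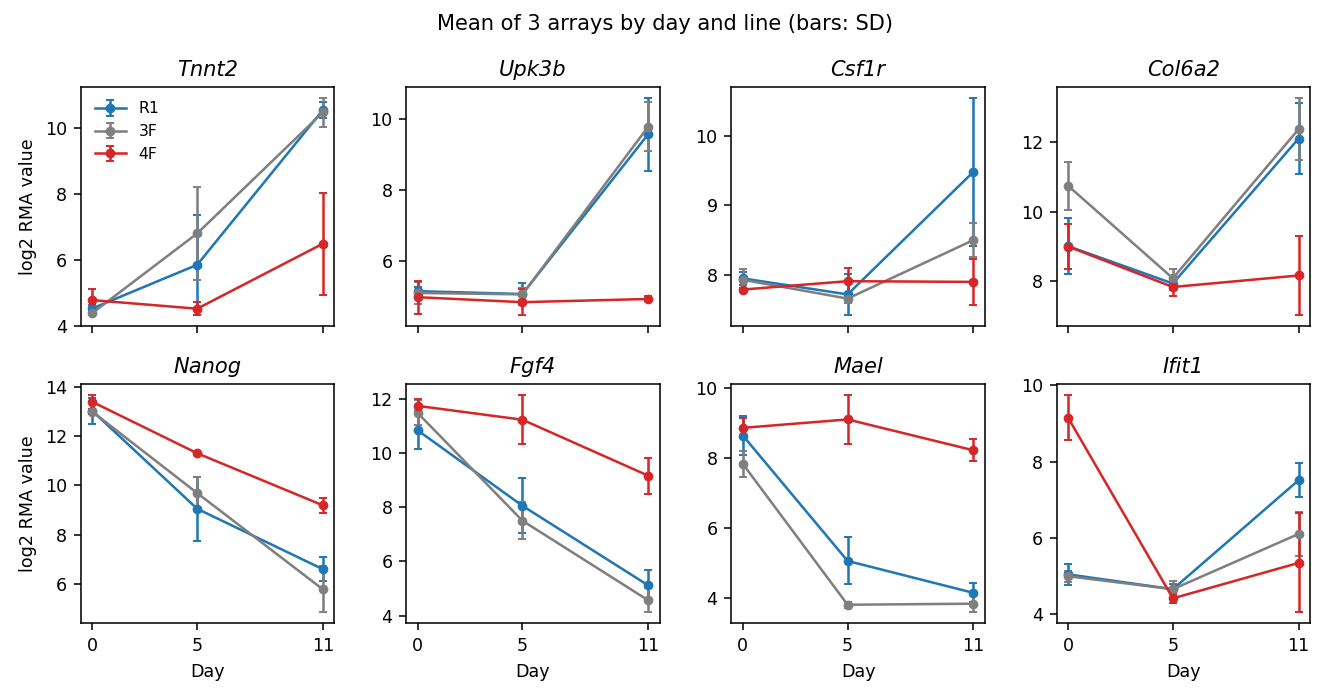
Mean log2 values of 3 arrays (bars, SD) at days 0, 5 and 11 for R1 (blue), 3F (grey) and 4F (red). At day 11 Tnnt2, Upk3b, Col6a2 and Csf1r are higher in R1 and 3F than in 4F, Nanog, Fgf4 and Mael stay higher in 4F from day 5 on, and Ifit1 starts high in 4F at day 0 and is lowest there at day 11.

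The levels by day were as follows. Fgf4 went from 11.73 ± 0.27 (SD, n = 3) at day 0 to 11.22 ± 0.9 at day 5 and 9.16 ± 0.66 at day 11 in 4F. In R1 it went from 10.83 ± 0.7 to 8.05 ± 1.02 and 5.12 ± 0.55. Tnnt2 went from 4.53 ± 0.09 to 5.85 ± 1.51 and 10.54 ± 0.24 in R1 and from 4.78 ± 0.34 to 4.52 ± 0.2 and 6.49 ± 1.54 in 4F. 3F stood near R1 in both genes at day 11, at 4.57 ± 0.45 for Fgf4 and 10.47 ± 0.43 for Tnnt2.

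Of 14 primed epiblast genes, which mark the state just before the germ layers form, 2 were called higher and 1 lower. Without the third R1 array, and with the index as covariate, 0 were called in either direction by limma. Otx2, a factor of that state and of the forebrain, had log2 values of 6.13, 6.29 and 4.39 in R1 and 7.9, 8.86 and 7.43 in 4F, a difference of 2.46 ± 0.69 (adjusted p = 0.0119). The call of Otx2 was lost without the second 4F array (2.06, adjusted p = 0.0701) or the third R1 array (1.85, adjusted p = 0.0793) and with the covariate (0.58, adjusted p = 0.755). Fgf5, the usual marker of the primed state, was not called, with values of 5.65, 5.39 and 4.08 in R1 and 4.05, 4.66 and 4.47 in 4F. The other higher gene was Nodal, the ligand that keeps the primed state (1.77 ± 0.45, adjusted p = 0.0059), whose call was lost without the third R1 array (1.17, adjusted p = 0.0539), with the covariate (0.22, adjusted p = 0.848) and with its second probe set (0.11, adjusted p = 0.804).

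Some germ line and meiosis genes were higher in 4F. Of 17 measured, 6 were called higher and 0 lower, with a median of 0.39, and 5 to 7 were called with single arrays left out. Pluripotent cells in culture transcribe a number of these genes, which are otherwise kept silent by DNA methylation and by the repressors E2F6 and MGA with MAX, whose motifs are GCGGGA and the E-box CACGTG. The promoters of Mael, a protein that restrains transposons in germ cells, Ddx4, a germ cell RNA helicase also called Vasa, and Sycp3, a part of the axis of meiotic chromosomes, are shown because each holds both motifs. They are the 250 bases before the annotated start, from RefSeq on build GRCm38.p6, with GCGGGA (or TCCCGC where it lies on the opposite strand) and CACGTG in capitals. Mael lies at chr1:166238745-166238994 and Ddx4 at chr13:112652311-112652560, both on the minus strand, and Sycp3 at chr10:88459337-88459586 on the plus strand.
Mael: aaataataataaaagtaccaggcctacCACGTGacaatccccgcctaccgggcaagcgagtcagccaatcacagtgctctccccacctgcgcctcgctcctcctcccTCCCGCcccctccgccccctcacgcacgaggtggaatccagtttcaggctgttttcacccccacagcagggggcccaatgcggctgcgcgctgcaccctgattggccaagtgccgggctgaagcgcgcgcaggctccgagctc
Ddx4: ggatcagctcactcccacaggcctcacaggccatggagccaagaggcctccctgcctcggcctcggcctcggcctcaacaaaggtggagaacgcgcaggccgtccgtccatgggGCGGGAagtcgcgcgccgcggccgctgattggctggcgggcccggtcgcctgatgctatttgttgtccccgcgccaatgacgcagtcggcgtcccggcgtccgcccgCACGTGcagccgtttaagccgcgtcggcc
Sycp3: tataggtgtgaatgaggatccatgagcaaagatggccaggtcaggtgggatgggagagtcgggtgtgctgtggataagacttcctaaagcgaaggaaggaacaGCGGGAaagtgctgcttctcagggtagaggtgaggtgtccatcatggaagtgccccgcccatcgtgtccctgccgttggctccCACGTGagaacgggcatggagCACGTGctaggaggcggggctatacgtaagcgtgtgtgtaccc
GCGGGA was found, on either strand, in 16.9% of 32851 upstream windows of 250 bases, and CACGTG, which reads the same on both strands, in 6.02%. Of the 17 measured germ line genes 13 had a window; 4 held GCGGGA and 7 held CACGTG. Of the 4 called genes with a window, 3 held each motif, and Stra8 held neither. Of the 9 genes with a window that were not called, 1 held GCGGGA and 4 held CACGTG, and Hormad1 among them held both, so the motifs were found in genes of both kinds; they did not overlap each other in the promoters shown. The matches are a description of these letters and no binding was measured.

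Mael had log2 values of 4.14, 4.41 and 3.88 in R1 and 8.16, 8.54 and 7.93 in 4F, a difference of 4.07 ± 0.33 (adjusted p = 5.49e-08), or 16.7-fold. Ddx4 had values of 4.78, 4.63 and 4.22 in R1 and 7.43, 7.38 and 7.63 in 4F and a difference of 2.94 ± 0.28 (adjusted p = 2.65e-07). Sycp3 had values of 5.64, 4.7 and 4.4 in R1 and 7.75, 7.8 and 6.64 in 4F and a difference of 2.48 ± 0.43 (adjusted p = 0.000215). Stra8, which opens meiosis in response to retinoic acid, had values of 6.98, 6.7 and 6.25 in R1 and 8.6, 9.57 and 8.65 in 4F and a difference of 2.30 ± 0.30 (adjusted p = 1.25e-05). Tex15, a germ cell factor of transposon silencing, had values of 6.38, 6.3 and 6.83 in R1 and 8.18, 8.86 and 8.87 in 4F and a difference of 2.13 ± 0.28 (adjusted p = 1.37e-05). No 4F array fell within the R1 range in these 5 genes. Mael, Ddx4, Stra8 and Tex15 were also called with the index as covariate, and Sycp3 was not (0.75, adjusted p = 0.236).

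Mael and Ddx4 were not called before differentiation (adjusted p = 0.844 and 0.984). Mael stood at 8.63 ± 0.56 in R1 and 8.85 ± 0.27 in 4F at day 0 (SD, n = 3), and then at 5.05 ± 0.67 and 9.09 ± 0.69 at day 5. At day 11 the 3F line stood at 3.83 ± 0.25 for Mael and 3.87 ± 0.35 for Ddx4, where 4F stood at 8.21 ± 0.31 and 7.48 ± 0.13. Stra8 was already higher in 4F at day 0 (2.42 ± 0.30, adjusted p = 2.75e-05).

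Genes of the yolk sac-like endoderm were called in both directions. Of 23 visceral endoderm and liver secretory genes, 5 were called higher and 3 lower, with a median of -0.16; in a fit of only the compared arrays 3 were higher and 2 lower, and with the covariate 3 and 4. Apoc2, an apolipoprotein that activates lipoprotein lipase, had log2 values of 5.83, 4.72 and 4.8 in R1 and 8.16, 7.37 and 7.34 in 4F and a difference of 2.51 ± 0.31 (adjusted p = 6.95e-06). Amn, the membrane anchor of the endocytic receptor cubilin, had values of 8.33, 6.75 and 6.62 in R1 and 9.09, 9.03 and 9.59 in 4F and a difference of 2.0 ± 0.37 (adjusted p = 0.000415), not called with the index as covariate (0.97, adjusted p = 0.2). Ambp, the precursor of a plasma protease inhibitor, was lower, with values of 6.55, 6.49 and 5.52 in R1 and 4.31, 4.46 and 4.67 in 4F and a difference of -1.71 ± 0.22 (adjusted p = 1.2e-05). Afp, the fetal albumin relative, had values of 12.37, 12.1 and 10.36 in R1 and 10.32, 10.48 and 10.54 in 4F, overlapping groups and a call (-1.16 ± 0.38, adjusted p = 0.0271) that was lost without the first or second array of either line. Ttr and Apoa1 were not called, with values of 11.93, 10.45 and 8.61 in R1 and 11.33, 11.31 and 11.54 in 4F for Ttr and 8.91, 7.64 and 6.69 in R1 and 8.02, 7.77 and 8.16 in 4F for Apoa1, and R1 arrays that spread widely. Of 16 definitive endoderm and gut genes 5 had an unadjusted p under 0.05 in the limma fit, beside 6412 of all 18193 genes. Of the 16, 0 were called in either direction by limma, and the median was -0.06. Without the third R1 array 2 were called lower, and without the third 4F array 1 was called higher and 1 lower.

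Of 25 neural genes 3 were called higher, Sox2 among them, and 2 lower, with a median of 0.03 against -0.10 over all genes. Under the index covariate 1 was higher and 0 lower. Tubb3, the neuronal tubulin and 1 of the lower genes (-1.44 ± 0.48, adjusted p = 0.0294), lost its call without the first or second 4F or the second or the third R1 array, and had the opposite sign with the covariate (0.11, adjusted p = 0.936). Zic1, a zinc finger factor of the dorsal neural tube, had log2 values of 4.96, 5.53 and 5.15 in R1 and 6.71, 7.19 and 7.6 in 4F and a difference of 1.96 ± 0.35 (adjusted p = 0.000303), which was 3.0 with the covariate. Ncam1, a cell adhesion molecule of nerve and other tissues, was lower (-1.83 ± 0.38, adjusted p = 0.00123), and not called with the covariate (-0.52, adjusted p = 0.498). The neural progenitor genes Pax6, with values of 5.61, 5.49 and 5.21 in R1 and 5.49, 5.5 and 5.42 in 4F, and Sox1, with values of 5.37, 5.27 and 4.95 in R1 and 5.1, 5.01 and 5.37 in 4F, had overlapping groups. Of 12 neural crest genes 1 was higher and 1 lower, with 3 higher without the third 4F array, 0 higher without the second and 0 in either direction with the covariate. Ednrb, the endothelin B receptor, had a difference of -2.81 ± 0.67, adjusted p = 0.0038, not called with the covariate (-0.95, adjusted p = 0.55) or in its second probe set (-0.79, adjusted p = 0.000135).

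Of 19 surface ectoderm and epithelial genes 3 were higher and 0 lower (5 higher without the third 4F array, 1 without the first or second 4F or the second or the third R1 array, and 0 higher and 2 lower with the covariate), each close to the 2-fold limit and each lost without at least 1 of the arrays, and the median was 0.33. The simple epithelial keratin gene Krt18 had values of 11.63, 11.8 and 10.86 in R1 and 10.96, 11.09 and 10.65 in 4F and was not called. Of 15 trophoblast genes 2 were higher: Gata3 (1.80 ± 0.50, adjusted p = 0.0109) and Tfap2c (1.45 ± 0.31, adjusted p = 0.00172), both factors of the trophoblast, and neither was called with the covariate (2.10, adjusted p = 0.0779; 0.68, adjusted p = 0.336). Of 18 skeletal muscle genes 1 was higher (Mylpf, the fast light chain, 1.80 ± 0.27, adjusted p = 6.45e-05; with the covariate 0.95, adjusted p = 0.0659) and 1 lower, Acta1. Of 31 Hox genes 3 were higher and 2 lower. The higher count was 1 without the second 4F array, and the lower count was 1 without the first R1 array and 0 without the first 4F or the second R1 array and with the covariate; the lower genes were Hoxb2 (-1.64) and Hoxd8 (-1.48). Hoxd13, the last gene of its cluster, had values of 7.89, 7.81 and 7.24 in R1 and 8.96, 9.88 and 9.31 in 4F and a difference of 1.74 ± 0.25 (adjusted p = 4.07e-05), a call not made with its second probe set (-0.09, adjusted p = 0.704).

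Feeder cells are a possible carry-over in all cultures, so fibroblast genes were read as well. Of 20 measured, 2 were higher and 3 lower, and the lower count ranged from 1 to 9 with single arrays left out, the most without the third 4F array and the fewest without the second. The mean level of the list was 8.89 to 10.01 over the 4F arrays and 9.54 to 10.12 over the R1 arrays. S100a4, a calcium-binding protein of fibroblasts, was lower (-1.52 ± 0.39, adjusted p = 0.00613), a call lost without the second 4F array (-1.11, adjusted p = 0.0594). Tm4sf1 was higher, with values of 6.21, 6.6 and 6.97 in R1 and 8.33, 8.2 and 10.07 in 4F (2.27 ± 0.39, adjusted p = 0.000185), a call not made with its second probe set (0.25, adjusted p = 0.461). Ccl2 and Serpinb2 were not called, with values of 7.55, 7.97 and 9.62 in R1 and 6.88, 6.96 and 8.46 in 4F for Ccl2 and 4.89, 4.81 and 4.37 in R1 and 4.22, 3.88 and 4.64 in 4F for Serpinb2. At day 0, before differentiation, 5 of the 20 genes were called higher in 4F and 0 lower, with a median difference of 0.35. Over all 18193 genes 117 were called higher there. The mean level of the list at day 0 was 11.87 in 4F and 11.09 in R1. For the difference between the day 11 and the day 0 contrast, 7 of the 20 were called lower and 0 higher, beside 1279 lower over all genes. The part of feeder cells in the differences above was not tested.

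Wnt pathway genes were lower in 7 and higher in 1 of 29, with a median of -0.10. The lower count was 3 without the first 4F array, 4 without the second 4F array and 3 without the third R1 array, and it was 4 under each scaling and 2 with the index as covariate. The ligand gene Wnt2, active in heart and lung mesoderm, had log2 values of 10.86, 10.25 and 10.78 in R1 and 7.86, 7.67 and 8.95 in 4F and a difference of -2.47 ± 0.42 (adjusted p = 0.000186). Wnt5b, a ligand of non-canonical signalling, had values of 8.27, 8.08 and 7.77 in R1 and 5.73, 5.98 and 5.86 in 4F and a difference of -2.18 ± 0.56 (adjusted p = 0.00581). Both were called with the index as covariate as well (-2.50 and -2.75). The receptor genes differed in direction: Fzd2 was lower, with values of 11.37, 11.53 and 11.71 in R1 and 9.6, 10.19 and 10.46 in 4F (-1.45 ± 0.22, adjusted p = 6.69e-05), and Fzd5 higher, with values of 6.43, 6.08 and 6.14 in R1 and 7.82, 8.68 and 7.53 in 4F (1.80 ± 0.43, adjusted p = 0.00392). Neither receptor gene was called with the covariate (-0.68, adjusted p = 0.0771; 1.49, adjusted p = 0.153), nor was the second probe set of Fzd5 (0.19, adjusted p = 0.67).

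Of 27 BMP and TGF-beta genes, 2 were called higher and 4 lower, with a median of -0.20; 1 was higher without the second 4F or the third R1 array, and with the covariate 0 were called in either direction by limma. Tgfb3, a ligand that promotes matrix deposition, had log2 values of 8.74, 9.15 and 9.54 in R1 and 7.09, 7.36 and 7.9 in 4F and a difference of -1.69 ± 0.32 (adjusted p = 0.000557). Tgfbi, a matrix protein induced by TGF-beta, had values of 12.45, 12.7 and 12.73 in R1 and 11.33, 11.24 and 11.4 in 4F and a difference of -1.30 ± 0.36 (adjusted p = 0.0106). Lefty1, an inhibitor of Nodal, was higher (1.38 ± 0.37, adjusted p = 0.00842), a call lost without the second 4F array (1.19, adjusted p = 0.052). None of the 3 was called with the covariate (-0.77, adjusted p = 0.244; -0.01, adjusted p = 0.992; 0.74, adjusted p = 0.428). The mesoderm-inducing ligand gene Bmp4 was not called, with values of 11.41, 11.45 and 11.59 in R1 and 11.03, 11.31 and 11.29 in 4F (-0.27 ± 0.43, adjusted p = 0.713).

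Notch genes gave 2 higher and 0 lower of 16, with 3 higher and 1 lower without the third R1 array. The receptor gene Notch3 had log2 values of 8.91, 8.42 and 9.04 in R1 and of 9.96 to 10.4 in 4F and a difference of 1.33 ± 0.26 (adjusted p = 0.000649), less in its second probe set (0.52, adjusted p = 0.0575). The ligand gene Jag2 had a difference of 1.03 ± 0.17, adjusted p = 0.000111, which fell under 2-fold with the covariate (0.88, adjusted p = 0.0261) and without the first 4F, the second 4F or the second R1 array. Of 14 genes of the IGF axis 5 were lower and 0 higher, and 3 were lower without the first 4F, the second 4F or the third R1 array; with the covariate 1 was lower and 1 higher. Igfbp3, a carrier protein that limits IGF action, had values of 10.17, 10.63 and 10.67 in R1 and 7.16, 7.72 and 8.5 in 4F and a difference of -2.69 ± 0.64 (adjusted p = 0.00343), and -3.22 with the covariate. Igf1 had values of 8.13, 8.43 and 6.92 in R1 and 6.18, 6.25 and 6.75 in 4F, with the third R1 array just above 4F, and a difference of -1.44 ± 0.28 (adjusted p = 0.000613), not called with the covariate (-1.04, adjusted p = 0.103).

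Some genes induced by low oxygen were higher in 4F. Of 24 hypoxia and glycolysis genes, 6 were called higher and 0 lower, with a median of 0.19 and 3 to 6 calls when single arrays were left out, the fewest without the first or second R1 array, and 3 in a fit of only the compared arrays. With the index as covariate 7 were called, all 6 among them. Ankrd37, a direct target of the hypoxia factor HIF1, had log2 values of 6.66, 7.62 and 7.87 in R1 and of 9.42 and above in 4F and a difference of 2.31 ± 0.38 (adjusted p = 0.000156). Egln3, an oxygen-sensing hydroxylase of the HIF proteins, had values of 9.49, 8.95 and 9.84 in R1 and 10.78, 11.05 and 11.24 in 4F and a difference of 1.60 ± 0.31 (adjusted p = 0.000613). Adm, the vessel-widening peptide adrenomedullin, had values of 8.19, 8.42 and 8.96 in R1 and 9.61, 9.97 and 10.56 in 4F and a difference of 1.52 ± 0.30 (adjusted p = 0.000705). The groups were apart in all 3 genes, though the second probe set of Adm missed the threshold (0.53, adjusted p = 0.266). Vegfa, the vessel growth factor, was called at 1.09 ± 0.31, adjusted p = 0.0114 with the third R1 array close to 4F (R1 9.12, 9.4 and 10.34; 4F 11.06, 10.62 and 10.42), a call lost without the first array of either line, without the second R1 array and with its second probe set (-0.10, adjusted p = 0.749).

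Of 16 targets of p53 and cyclin inhibitors, 3 were higher and 1, Cdkn1c, lower; 3 were lower without the third 4F array and 2 without the first R1 array. Pmaip1, the death-promoting protein Noxa, had log2 values of 6.25, 6.46 and 6.61 in R1 and 7.85, 7.96 and 8.36 in 4F and a difference of 1.62 ± 0.22 (adjusted p = 2.12e-05). Mdm2, the ligase that removes p53, had values of 11.41, 11.41 and 11.21 in R1 and 12.55, 12.32 and 12.45 in 4F and a difference of 1.10 ± 0.13 (adjusted p = 4.27e-06), which fell just under 2-fold with the covariate (0.96, adjusted p = 0.00369). Of 27 replication and cell cycle genes 1 was called, Tyms, higher at 1.71 ± 0.35, adjusted p = 0.001 but not with the covariate (0.65, adjusted p = 0.368) or in its second probe set (-0.33, adjusted p = 0.201). The proliferation marker Mki67 had values of 10.74, 10.23 and 10.67 in R1 and 11.29, 11.6 and 11.17 in 4F, groups apart and a difference under 2-fold (0.81 ± 0.26, adjusted p = 0.0274). Respiratory chain genes gave 1 higher and 1 lower of 26, and fatty acid oxidation genes 1 lower of 16. With the covariate 0 of these respiratory genes were called in either direction by limma, and 1 fatty acid gene was higher and 0 lower; without the third 4F array 3 fatty acid genes were lower, and without the third R1 array 2 were higher. Of 19 immediate early and stress genes, Egr2, a growth factor-induced zinc finger gene, was lower (-1.75 ± 0.39, adjusted p = 0.00209) and the heat shock gene Hspa1b higher (1.26 ± 0.31, adjusted p = 0.0047), the latter call lost without the second R1 array (0.91, adjusted p = 0.0464) and in its second probe set (0.82, adjusted p = 0.0465).

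Some interferon-stimulated genes, part of the antiviral defence, were lower in 4F at day 11, and some had been higher there before differentiation. At day 11 6 of 19 were called lower and 0 higher, with a median of -0.48; at day 0 7 were called higher and 2 lower, with a median of 0.91. Ifit1, which binds viral RNA, had log2 values of 7.02, 7.61 and 7.9 in R1 and 4.61, 4.57 and 6.84 in 4F at day 11, a difference of -2.17 ± 0.41 (adjusted p = 0.000566). At day 0 it stood at 5.04 ± 0.27 in R1 and 9.15 ± 0.59 in 4F (SD, n = 3), a difference of 4.11 ± 0.41 (adjusted p = 1.4e-06). The change of its contrast from day 0 to day 11 was -6.28 ± 0.58 (adjusted p = 1.14e-06). Ifit2, a relative, had values of 8.54, 8.82 and 8.49 in R1 and 6.47, 6.82 and 7.53 in 4F and a difference of -1.68 ± 0.25 (adjusted p = 5.54e-05). Ifitm3, which blocks virus entry, had values of 10.61, 11.1 and 11.94 in R1 and 8.2, 8.86 and 10.26 in 4F and a difference of -2.11 ± 0.38 (adjusted p = 0.0003). Ifit2 was called with the index as covariate (-1.04, adjusted p = 0.0454), and Ifit1 (-1.21, adjusted p = 0.181) and Ifitm3 (-1.30, adjusted p = 0.113) were not.

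**Figure D5:**
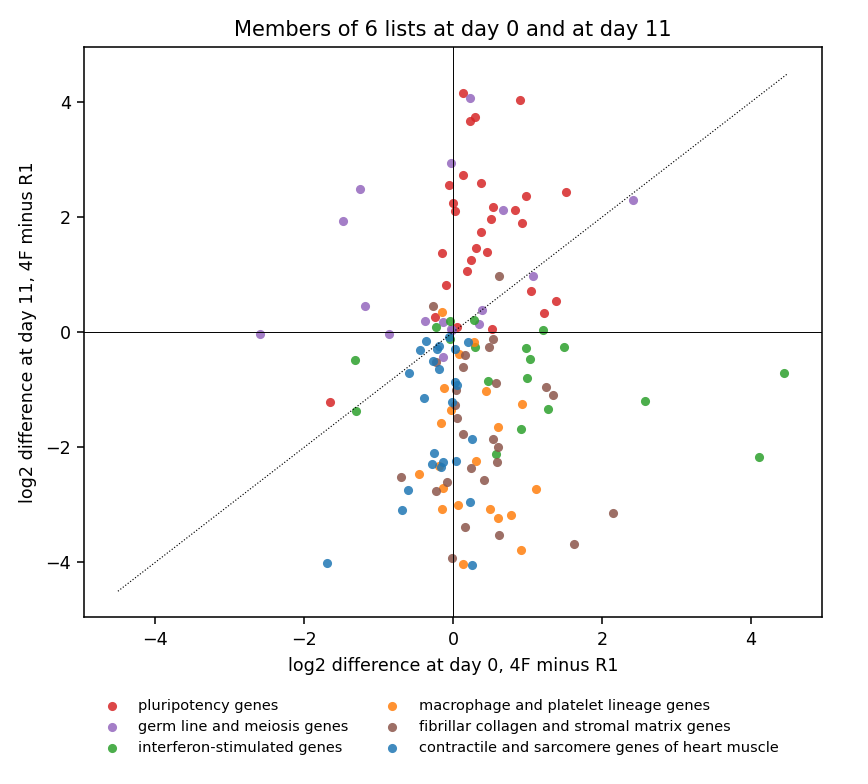
Log2 difference between 4F and R1 of the members of 6 gene lists at day 0 (horizontal) and at day 11 (vertical), with the line of equality dotted. Most pluripotency, macrophage, matrix and contractile genes lie near 0 at day 0 and away from 0 at day 11, and some interferon-stimulated genes lie to the right at day 0 and below 0 at day 11.

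Few of the genes called at day 11 were also called before differentiation. At day 0 204 genes were called (1.12%), 117 higher and 87 lower in 4F. At day 0 same-numbered arrays deviated together in all 3 pairs, and so did the third 4F and the second R1 array. With the replicate block 216 genes were called there, and in fits of only the compared arrays 134 without the block and 291 with it. Of the 204 genes of the main fit, 25 were called in the same direction at day 11 and 22 in the opposite direction. The 25 are 12.25% of the day 0 calls and 1.65% of the day 11 calls. The difference between the day 11 and the day 0 contrast was tested as such, and 1728 genes were called (9.5%). Of the 1511 genes called at day 11, 1049 (69.4%) were called there in the same direction. The same day 11 arrays enter both tests, so this overlap is no separate support for the day 11 calls. With the index as covariate 246 genes were called for this difference of contrasts. The day 0 count was 131 without the first 4F day 0 array and 449 without the first R1 day 0 array, and the count for the difference of contrasts was 993 without the first 4F day 11 array.

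The Y chromosome genes Uty and Eif2s3y were lower in 4F at both times. Uty had log2 values of 7.97, 7.97 and 7.46 in R1 and 3.94, 4.0 and 4.88 in 4F at day 11, a difference of -3.53 ± 0.37 (adjusted p = 8.68e-07), and a difference of -2.20 ± 0.37 (adjusted p = 0.00116) at day 0. Eif2s3y had values of 10.59, 10.9 and 10.58 in R1 and 6.41, 5.78 and 8.63 in 4F, a difference of -3.75 ± 0.56 (adjusted p = 5.32e-05), and of -2.81 ± 0.56 (adjusted p = 0.00578) at day 0. Within 4F, Eif2s3y stood at 9.24 ± 0.32 at day 0 and 6.94 ± 1.5 at day 11 (SD, n = 3), and the third 4F array at day 11 lay between the other 4F arrays and R1. Their second probe sets differed by less than 2-fold (-0.96, adjusted p = 0.00111; -0.50, adjusted p = 0.037). Xist, the RNA that coats an inactive X chromosome, was higher in 4F at day 11 with values of 5.77, 5.69 and 5.88 in R1 and 7.96, 7.7 and 6.63 in 4F (1.65 ± 0.30, adjusted p = 0.000405), but not with the covariate (0.95, adjusted p = 0.149) or in its second probe set (0.03, adjusted p = 0.957).

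The genes with the largest differences held others that none of the lists contained. Colec11, a secreted lectin of the complement system, had log2 values of 10.78, 10.54 and 10.43 in R1 and 5.54, 5.28 and 6.9 in 4F and a difference of -4.68 ± 0.66 (adjusted p = 3.1e-05). Islr, a secreted protein of mesenchymal cells, had values of 10.16, 10.64 and 11.5 in R1 and 5.36, 5.66 and 7.87 in 4F and a difference of -4.47 ± 0.43 (adjusted p = 2.64e-07). Epha3, an ephrin receptor of mesenchyme and the heart cushions, had values of 10.59, 10.93 and 11.34 in R1 and 6.13, 5.87 and 7.93 in 4F and a difference of -4.31 ± 0.36 (adjusted p = 8.1e-08). Asb4, a part of a ubiquitin ligase expressed in embryonic vessels, had values of 12.4, 12.3 and 11.77 in R1 and 7.25, 7.88 and 9.11 in 4F and a difference of -4.08 ± 0.62 (adjusted p = 6.87e-05), and Fcgrt, the neonatal receptor for immunoglobulin G, values of 9.39, 10.07 and 10.73 in R1 and 5.61, 5.87 and 7.07 in 4F and a difference of -3.88 ± 0.33 (adjusted p = 8.1e-08). In each of these 5 genes the third 4F array was the highest of its group and still below R1, and each was called with the index as covariate. Nell1, a secreted protein of bone formation (-4.53 ± 0.40, adjusted p = 1e-07), and Lrrc17 (-3.91 ± 0.47, adjusted p = 4.84e-06) were lower by similar amounts, but their second probe sets were not called (0.03, adjusted p = 0.92; -0.05, adjusted p = 0.808).

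Among the higher genes, Mymx, the fusion peptide of muscle precursors, had log2 values of 6.05, 5.47 and 5.67 in R1 and 9.32, 10.12 and 8.99 in 4F and a difference of 3.75 ± 0.42 (adjusted p = 2.24e-06). It was high in undifferentiated cells of both lines, at 11.17 ± 0.27 in R1 and 12.6 ± 0.11 in 4F (SD, n = 3). Mtm1, a phosphoinositide phosphatase, had values of 9.23, 9.0 and 7.84 in R1 and 12.35, 12.14 and 10.56 in 4F and a difference of 2.99 ± 0.40 (adjusted p = 1.58e-05). The zinc finger gene Zfp936 had values of 5.43, 4.97 and 4.92 in R1 and 8.22, 8.42 and 7.31 in 4F and a difference of 2.88 ± 0.24 (adjusted p = 8.1e-08), and Mreg, melanoregulin, values of 8.05, 7.34 and 7.5 in R1 and 10.26, 10.73 and 10.48 in 4F and a difference of 2.86 ± 0.32 (adjusted p = 2.57e-06). These 4 genes were called with the covariate too. Upp1, an enzyme of uridine breakdown (3.27 ± 0.55, adjusted p = 0.000161), the small nucleolar RNA host Snhg3 (3.24 ± 0.55, adjusted p = 0.000207) and Gdap10 (3.24 ± 0.60, adjusted p = 0.000411) were higher without the covariate and not called with it (1.29, adjusted p = 0.165; 1.46, adjusted p = 0.163; 1.26, adjusted p = 0.267).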

How the data were processed

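Total RNA of R1, 3F and 4F cells at days 0, 5 and 11, with 3 biological replicates each, was hybridised to 27 Affymetrix arrays of 45101 probe sets. The values used are the deposited log2 signals, normalized by the authors with RMA, per the submitters' processing notes; array medians ran from 5.91 to 6.10. The array annotation paired 34945 probe sets with 1 symbol, 932 with several and 9160 with none, and 64 were controls. Each of 18193 genes took its probe set of highest mean over all arrays. limma (version 3.58.1, R 4.3.3) fitted 9 group means to all 27 arrays, and the 4F minus R1 contrasts at day 11 and day 0, and their difference, were tested with Benjamini-Hochberg adjustment at an adjusted p under 0.05 and at least 2-fold. The script was tested on simulated data.

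The comparison, the 37 gene lists and the 66 fixed genes were chosen with earlier results of these data known. Named genes were drawn from the 15 largest rises and 15 largest falls with groups apart, with provisional gene names passed over. They were also drawn from up to 5 members of each list, the cell type markers and the fixed genes, of which 65 were measured. Not every marker, list member or fixed gene is printed. Other names were chosen after their values were seen. Residuals of 4F and R1 arrays of the same number correlated at 0.072, 0.05 and 0.218 at day 11. Those of the second 4F and the first R1 array correlated at 0.308 there. At day 0 the same-numbered arrays gave 0.48, 0.252 and 0.328, and the third 4F with the second R1 array gave 0.398. The labels state no pairing, and these values do not settle whether the numbers pair the arrays. The main fit has no block, and the blocked day 0 counts stand beside the unblocked one. No 2 arrays of a group held identical values. Promoter windows and coordinates are from RefSeq, build GRCm38.p6. Alternatives were other scalings, probe sets, thresholds, variance models, array weights, a filter on dim genes, the 3' minus 5' index as covariate, a replicate block, the compared arrays alone and each array left out.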

Additional observations from a re-analysis of the deposited data

Results flagged for a closer look

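The 4F minus R1 contrast differed between day 11 and day 0 in 1728 genes by limma's test of that difference itself (9.5% of those tested), and the genes below are those among the 30 with the largest day 11 differences for which that test passed. The 30 were picked by day 11 values that also enter that test, which favours passing it. Among the lower genes, the contrast at day 11 minus that at day 0 was -5.22 for Actg2, -4.71 for Nell1, -4.57 for Colec11 and -4.56 for Lyz1 on the log2 scale. It was -4.47 for Upk3b, -4.33 for Islr, -4.30 for Tnnt2 and -4.17 for C1qb. It was -4.04 for Asb4, -4.03 for Ms4a6b, -4.01 for Epha3, -3.91 for Col6a2, -3.69 for Fcgrt and -3.42 for Lrrc17. These 14 genes include muscle, mesothelial, macrophage and matrix genes.

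Among the higher genes the same quantity was 4.32 for Gdap10, 4.02 for Tdgf1, 3.84 for Mael and 3.66 for Snhg3. It was 3.45 for Dppa2, 3.44 for Zfp42, 3.30 for Kcnq1ot1, 3.13 for Fgf4 and 3.10 for Zfp936. It was 2.97 for Ddx4, 2.91 for Upp1, 2.89 for Mtm1, 2.85 for Airn, 2.31 for Mymx and 2.17 for Mreg. The 3' minus 5' index rose from 1.31 to 2.69 in 4F and from 1.45 to 1.94 in R1 between these days, and with the index as covariate the contrasts differed in 246 genes.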

How the results depend on the processing

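At a 1.5-fold threshold 3533 genes were called at day 11 (1021 higher and 2512 lower), 372 at day 0 and 2738 for the difference of the contrasts. Median centring gave 717 higher genes at day 11 and quantile normalization 755. The index covariate gave 547 lower genes at day 11 and 246 for the difference of contrasts, and leaving out replicate 3 of all groups gave 1690 lower genes. At day 0 an adjusted p under 0.01 gave 123 genes, array weights 404, the compared arrays alone 134 and a test against 1.2-fold 130; for the difference of contrasts an adjusted p under 0.01 gave 942 and array weights 2606. With single arrays left out, counts ran from 1084 to 2199 at day 11 (345 to 596 higher, 739 to 1603 lower), from 131 to 449 at day 0 and from 993 to 2508 for the difference of contrasts. The replicate block gave 1530 genes at day 11, 216 at day 0 and 1838 for the difference of contrasts. With only the compared arrays it gave 1464, 291 and 1212. In the 27-array fit the block ended no call of a named gene. Whether the replicate numbers pair the arrays was not settled at either day.

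Of the 149 called named genes, 74 were not called with the index covariate, 37 with the second brightest probe set, 34 without some single array and 6 under some scaling. Genes with a single probe set kept it in the second brightest setting and so could not lose a call through another probe set. Of all 18193 genes, 9010 had several probe sets. Signs turned with the second probe set for Nell1 (0.0272), Plat (0.49), Grhl2 (-0.27), Trp63 (-0.0397), Tyms (-0.33), Hoxd13 (-0.0891), Igfbp7 (0.0136), Pfkp (-0.39), Myl4 (0.12) and Vegfa (-0.10), and with the index covariate for Tubb3 (0.11), Igf2r (0.39) and Dkk3 (0.35); the cause was not tested. 3 arrays a group limit the precision of every value.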
